A study of Mus musculus with 6 samples.

Results

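The genes described here encode matricellular proteins and the core proteins of elastic fibres, in RNA-seq of cultured calvarial preosteoblasts, the precursors of bone-forming osteoblasts in the skull vault. They are *Postn*, *Tnc*, *Tnn*, *Thbs1*, *Thbs2*, *Fbn1*, *Fbn2*, *Eln*, *Fbln1* and *Fbln5*, taken by gene symbol, and all 10 were found once each among the 17001 rows of the table. The cells were taken from the skulls of mice 3 days old and were grown in α-MEM with 10% FBS. There were 3 control libraries, whose genotype was NELL2 fx/fx, and 3 libraries labelled cKO, whose genotype was Col1-cre; NELL2 fx/fx. Both groups thus carried floxed *Nell2* alleles, and the labelled cKO cells also carried Cre under a fragment of the mouse Col1a1 promoter that acts in cells of the osteoblast lineage. The labels do not say whether replicates were separate animals or cultures, so p-values measure only the spread between these libraries. Values are FPKM (sequenced fragments divided by transcript length and by the mapped total), which set genes of unlike length on 1 scale but carry no read number, so that counting error is unknown.

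Matricellular proteins are secreted into the extracellular matrix and mainly modulate how cells attach and respond to it, instead of bearing load. Periostin and the tenascins mark periosteum, sutures and tendon insertions, and thrombospondins bind cell surface receptors and growth factors. Elastic fibres consist of crosslinked elastin on a scaffold of fibrillin microfibrils, and fibulins link both during assembly. In bone, fibrillin microfibrils are also known to hold latent TGF-β and BMPs.

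Of the 10 genes, *Postn* was higher and *Thbs2* was lower in every library labelled cKO than in every control library. *Tnn* and *Thbs1* were below the control mean in all 3 libraries labelled cKO, with some overlap of the groups. *Eln* was the most variable member and was above every control in 2 of the 3 libraries labelled cKO. For *Fbn1*, *Fbn2*, *Fbln1*, *Fbln5* and *Tnc* the fold change was between 0.895 and 1.01. None of the members passed limma's moderated test after Benjamini-Hochberg adjustment over the 11590 genes that reached 1 FPKM in 3 or more libraries. The share of all tested genes that passed was 0%, while 1521 genes had an unadjusted p-value under 0.05. This number was 852 without cKO replicate 3, 929 without control replicate 1 or 2, 963 without cKO replicate 2 and 2461 without cKO replicate 1. At an unadjusted p-value under 0.05, 1 member (*Postn*) was higher and 2 (*Thbs2* and *Tnn*) were lower, or 30% of the 10, beside 13.1% of all tested genes. The *Tnn* call was lost under 7 of the 13 alternatives, whereas *Postn* and *Thbs2* stayed under this limit in all 13. Of all tested genes, 5.37% met this limit as higher and 7.76% as lower. The groups did not overlap for 2 members (1 higher and 1 lower), beside 18.3% of all tested genes, of which 6.51% were higher and 11.8% lower. The median log2 fold change was -0.066 over the members and -0.018 over all tested genes.

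Before these values, the libraries themselves were examined. *Nell2*, the targeted gene, had FPKM values of 3.17, 2.59 and 1.88 in control replicates 1, 2 and 3. In the group labelled cKO it had 5.64, 1.61 and 5.74 (adjusted p = 0.591 by limma). The groups overlapped and the mean was not lower in the group labelled cKO, and all directions below follow the labels. Since FPKM sums over a whole gene, transcripts that lost the floxed part cannot be told apart from intact ones. The Y-linked gene *Ddx3y* was listed at 0, 0.06 and 17.27 in the controls and at 17.33, 0 and 15.65 in the libraries labelled cKO. Control replicate 3 and cKO replicates 1 and 3 therefore held RNA of male cells, which the labels do not mention. The library labelled cKO replicate 1 deviated most from its group mean over the tested genes, by 0.11 on the log2 scale on average, against 0.08 to 0.10 for the other 5. Without it, 324 genes (2.8%) had an adjusted p-value under 0.05, and none of these was a member. *Col1a1*, the most abundant gene of the osteoblast lineage list, had a mean of 8273 FPKM, and *Runx2* and *Sp7*, transcription factors of that lineage, were between 10.3 and 17.6 FPKM in all 6 libraries.

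In the order of mean FPKM over the 6 libraries, *Thbs1* came first with 976 ± 239 (SD), followed by *Postn* with 787 ± 177 and *Thbs2* with 738 ± 89.6. The ranges of these 3 overlapped, and their order differed between groups. The control means were 1109 for *Thbs1*, 810 for *Thbs2* and 658 for *Postn*, and the means of the libraries labelled cKO were 916 for *Postn*, 843 for *Thbs1* and 666 for *Thbs2*. *Postn* was above *Thbs2* in all 3 libraries labelled cKO and in none of the controls. All 3 had a mean above that of 99.2% or more of the rows. *Tnc* followed with 192 ± 23.1, apart in all 6 libraries from its neighbours on either side. *Fbn1* had 104 ± 10.5 and was above *Fbln1* in all 6 libraries. *Fbln1* (83.0 ± 8.71), *Fbln5* (80.9 ± 10.4) and *Tnn* (66.0 ± 10.2) had overlapping ranges. *Eln* had 59.3 ± 55.6, a spread that covered the levels of its neighbours on both sides. *Fbn2* was the lowest with 29.5 ± 3.91. The 5 matricellular genes together made up 0.360% to 0.526% of each library's summed FPKM, and the 5 elastic fibre genes 0.0529% to 0.0766%. The lowest matricellular share and the highest elastic fibre share were both those of the library labelled cKO replicate 2.

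**Figure D1:**
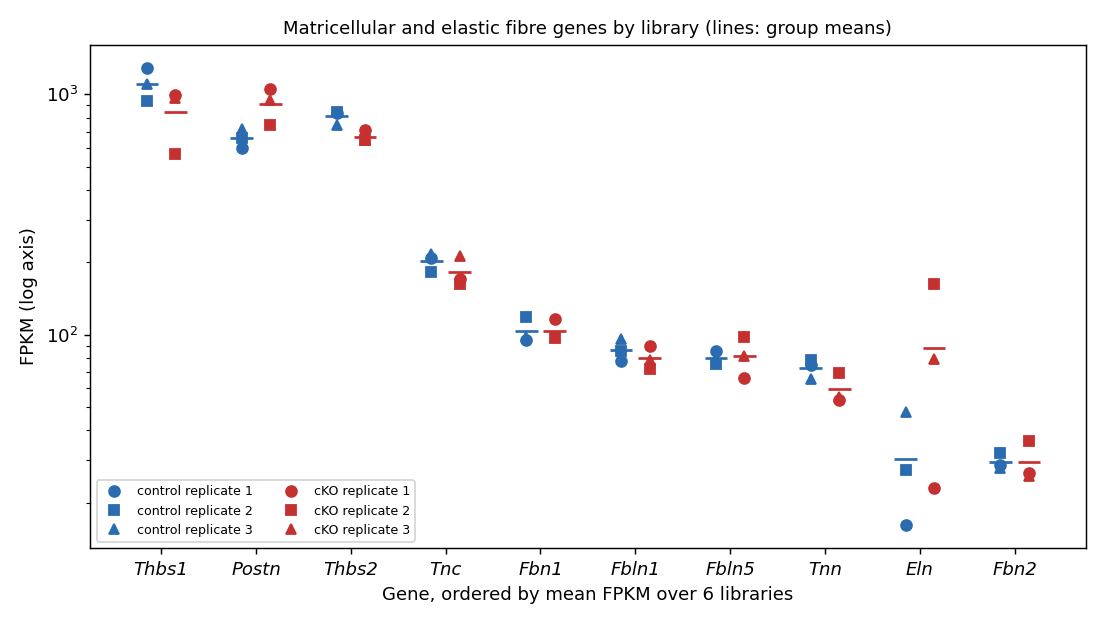
FPKM of each of the 10 genes (log axis) in the 3 control libraries (blue) and the 3 libraries labelled cKO (red), with a symbol per replicate number and a line at each group mean. *Postn* and *Thbs2* show groups that do not overlap, and *Eln* spreads from 16.07 to 162.7 FPKM.

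*Postn* encodes periostin, a fasciclin-domain protein of periosteum and sutures that binds integrins and collagen. It maps to GRCm38 chromosome 3, 54361109 to 54391037, plus strand, in the GENCODE annotation used here, which may differ from that of the authors, and its longest coding transcript has 22 exons. Its FPKM was 599.74, 658.84 and 715.92 in the controls and 1055.17, 742.46 and 950.76 in the libraries labelled cKO. Even the lowest library labelled cKO exceeded the highest control, although the gap between cKO replicate 2 and control replicate 3 was narrow. The group means were 658 ± 58.1 (SD, n = 3) and 916 ± 159 (SD, n = 3). The log2 fold change was 0.46 (95% interval 0.14 to 0.79, adjusted p = 0.312 by limma), or 1.38-fold. It was 0.36 without cKO replicate 1 and 0.61 without cKO replicate 2. As these are bulk RNA values, more cells that express a gene and more RNA per cell cannot be told apart here, for this gene as for the others.

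*Tnc* and *Tnn* encode tenascin C and tenascin N (also called tenascin W), large glycoproteins made at sites of matrix remodelling, of which tenascin N is known mainly from bone and periosteum. *Tnn* (chromosome 1, 160085029 to 160153580, minus strand) had 74.46, 78.45 and 65.08 FPKM in the controls and 53.52, 69.44 and 54.99 in the libraries labelled cKO. Only cKO replicate 2 reached into the control range, where it was above control replicate 3. The log2 fold change was -0.29 (95% interval -0.58 to -0.0085, adjusted p = 0.373 by limma). Its unadjusted p-value was 0.054 with a pseudocount of 0.1, 0.057 without the filter and 0.061 with quantile normalization, and 0.11 to 0.13 without control replicate 1 or 2 or cKO replicate 1 or 3. *Tnc* (chromosome 4, 63959785 to 64047015, minus strand) had 208.19, 182.05 and 215.87 FPKM in the controls and 170.25, 162.42 and 212 in the libraries labelled cKO. Its groups overlapped through cKO replicate 3, and the log2 fold change was -0.16 (95% interval -0.44 to 0.12, adjusted p = 0.581). The *Tnc* value moved to -0.28 without cKO replicate 3 and to -0.084 without cKO replicate 2.

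*Thbs1* and *Thbs2* encode thrombospondins 1 and 2, trimeric proteins that bind CD47 and CD36, and thrombospondin 1 is a known activator of latent TGF-β. *Thbs2* (chromosome 17, 14665500 to 14694235, minus strand) had 838.16, 847.52 and 744.56 FPKM in the controls and 707.89, 643.95 and 647.01 in the libraries labelled cKO. Every library labelled cKO was below every control. The means were 810 ± 56.9 (SD, n = 3) and 666 ± 36.1 (SD, n = 3), and the log2 fold change was -0.28 (95% interval -0.47 to -0.10, adjusted p = 0.312 by limma), or 0.823 of the control level. Leaving out any 1 library kept it between -0.34 and -0.25. *Thbs1* (chromosome 2, 118111876 to 118127133, plus strand) had 1293.43, 935.19 and 1099.77 FPKM in the controls and 998.14, 566.12 and 964.43 in the libraries labelled cKO. The library labelled cKO replicate 2 stood well below the other 5, and cKO replicates 1 and 3 lay within the control range. The log2 fold change of *Thbs1* was -0.43 (95% interval -0.98 to 0.12, adjusted p = 0.465), and -0.16 without cKO replicate 2.

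*Postn*, *Thbs2* and *Tnn* were the members with an unadjusted p-value under 0.05 (0.0123, 0.00891 and 0.0451 by limma, before adjustment), and the 250 bases before the transcription start of each are shown so that the sequences next to these genes can be read. They come from RefSeq on GRCm38.p6, whose promoter table matched 7 of the 10 members. They span chr3:54360857-54361106 (plus strand) for *Postn*, chr17:14694263-14694512 (minus strand) for *Thbs2* and chr1:160153576-160153825 (minus strand) for *Tnn*. For *Postn*, which has 2 listed starts, the start next to the GENCODE gene start was used. Capitals mark matches, on either strand, to any of the letters TATAAA of the core promoter box, the letters CCAAT of the NF-Y site, TGTGGT of RUNX sites, GGAATG of TEAD sites, TGANTCA of the AP-1 site, CAGACA of SMAD sites and GGGCGG of the Sp1 site, and no marked match overlaps another.
Postn: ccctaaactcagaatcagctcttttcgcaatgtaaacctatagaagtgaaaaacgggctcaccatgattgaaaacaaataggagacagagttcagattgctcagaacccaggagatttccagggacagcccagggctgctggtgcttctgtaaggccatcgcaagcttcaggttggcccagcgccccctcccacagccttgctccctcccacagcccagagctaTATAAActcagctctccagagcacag
Thbs2: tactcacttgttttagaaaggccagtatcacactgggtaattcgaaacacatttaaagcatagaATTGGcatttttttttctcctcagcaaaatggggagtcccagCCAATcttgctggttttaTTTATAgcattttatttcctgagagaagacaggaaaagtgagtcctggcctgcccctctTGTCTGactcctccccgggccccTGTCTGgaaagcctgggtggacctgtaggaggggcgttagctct
Tnn: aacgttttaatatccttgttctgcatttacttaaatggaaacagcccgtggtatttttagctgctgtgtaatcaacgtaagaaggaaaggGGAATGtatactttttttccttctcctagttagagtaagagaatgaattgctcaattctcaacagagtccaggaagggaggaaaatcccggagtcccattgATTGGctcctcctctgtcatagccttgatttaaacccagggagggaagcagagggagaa
The *Postn* window held TATAAA from 26 to 21 bases before the start. The *Thbs2* window held CCAAT in each orientation, TATAAA on the opposite strand from 126 to 121 bases before the start, and CAGACA in 2 places on the opposite strand. The *Tnn* window held CCAAT on the opposite strand from 59 to 55 bases before the start and GGAATG from 160 to 155. Among 32851 windows of the same length in the table, 12.4% held TATAAA, 33.8% CCAAT, 12.6% GGAATG and 17.1% CAGACA. The other 3 motifs, held by 14.0% (TGTGGT), 6.75% (TGANTCA) and 32.7% (GGGCGG) of windows, were not among the letters of these 3. No match was marked in all 3 windows, and a match describes letters, not a bound site.

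*Eln* encodes tropoelastin, the soluble precursor that is crosslinked into the elastic core of the fibre. It maps to chromosome 5, 134702593 to 134747323, minus strand, and its longest coding transcript has 37 exons. Its FPKM was 16.07, 27.29 and 47.61 in the controls and 23.03, 162.7 and 79.27 in the libraries labelled cKO. The libraries labelled cKO replicates 2 and 3 were above every control, whereas cKO replicate 1 was within the control range and below its mean. The log2 fold change was 1.25 (95% interval -0.41 to 2.91, adjusted p = 0.477 by limma). It was 2.0 (95% interval 0.82 to 3.19, adjusted p = 0.0954) without cKO replicate 1, and 0.62 without cKO replicate 2. The values ranged over 3.26 on the log2(FPKM + 1) scale across the 6 libraries, more than those of 99.9% of the tested genes. For *Thbs1* and *Postn* these ranges were 1.19 and 0.81.

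Fibrillins form the microfibrils, with *Fbn2* best known from embryonic tissue and *Fbn1* from tissue of all ages. *Fbn1* (chromosome 2, 125300594 to 125507993, minus strand, 65 exons in its longest coding transcript) had 94.63, 117.82 and 97.7 FPKM in the controls and 116.24, 97.01 and 98.23 in the libraries labelled cKO. *Fbn2* had 28.71, 32.2 and 27.74 FPKM in the controls and 26.46, 35.99 and 25.73 in the libraries labelled cKO. The groups overlapped for both genes, and the log2 fold changes were 0.0080 (95% interval -0.26 to 0.27, adjusted p = 0.983) and -0.021 (95% interval -0.34 to 0.30, adjusted p = 0.961 by limma). The sign of these changes, and of that of *Fbln5*, turned when single libraries were left out.

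Fibulin 1 is a component of the elastic core and of basement membranes, and fibulin 5 brings tropoelastin and its crosslinking enzymes to microfibrils. *Fbln1* (chromosome 15, 85205949 to 85286535, plus strand) had 78.01, 85.28 and 95.49 FPKM in the controls and 89.52, 71.71 and 78.19 in the libraries labelled cKO. Its log2 fold change was -0.11 (95% interval -0.37 to 0.15, adjusted p = 0.666 by limma), with -0.20 without cKO replicate 1, -0.18 without control replicate 1, -0.039 without cKO replicate 2 and -0.037 without control replicate 3. *Fbln5* (chromosome 12, 101746565 to 101819055, minus strand) had 85.79, 75.74 and 79.15 FPKM in the controls and 66.01, 97.34 and 81.51 in the libraries labelled cKO. For this gene the log2 fold change was 0.0088 (95% interval -0.32 to 0.34, adjusted p = 0.984). The groups overlapped for both. The lowest and the highest *Fbln5* values were those of cKO replicates 1 and 2, which also held the lowest and the highest *Eln* values within the libraries labelled cKO.

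**Figure D2:**
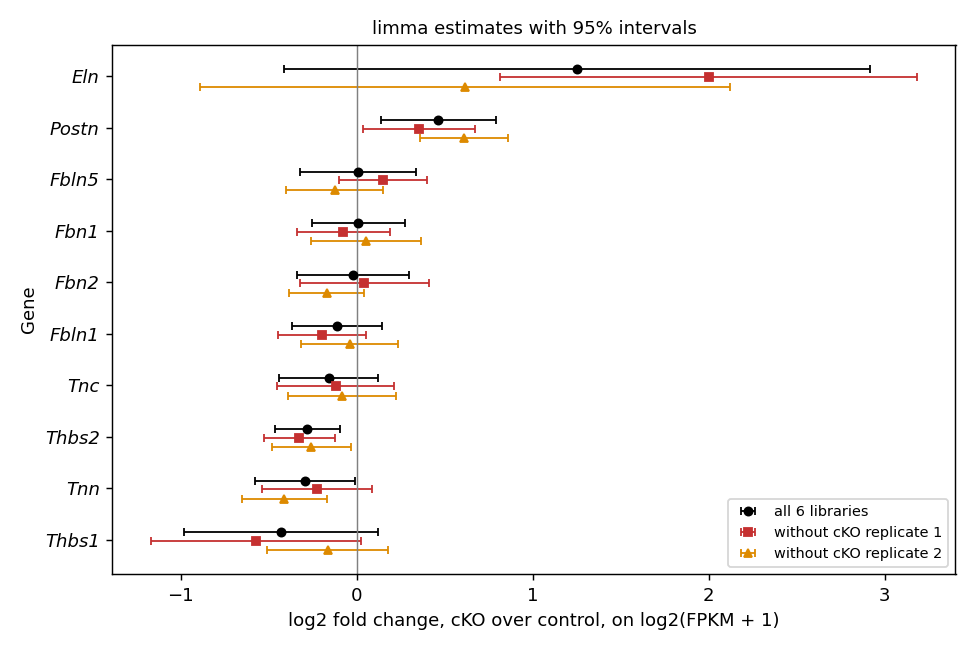
Log2 fold change of each gene (x axis, cKO over control on log2(FPKM + 1)) with its 95% interval from limma, with all 6 libraries (black), without cKO replicate 1 (red) and without cKO replicate 2 (orange). The *Postn* and *Thbs2* intervals stay on 1 side of 0 in all 3 fits, and *Eln* moves from 1.25 to 2.0 or 0.62 with the library left out.

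The libraries were also compared within each class of *Ddx3y* level, since 1 control and 2 libraries labelled cKO held RNA of male cells. In the male libraries the mean log2 difference between cKO and control was 0.48 for *Postn*, -0.14 for *Thbs2*, -0.26 for *Tnn* and -0.16 for *Thbs1*. In the other 3 it was 0.24, -0.39, -0.14 and -0.96 in the same order. *Eln* differed by -0.15 in the male libraries and by 2.90 in the others. Each class holds 1 library on 1 side, control replicate 3 in the first and cKO replicate 2 in the second, so these values have no replicate check there, and the 2.90 is that of cKO replicate 2 alone. With *Ddx3y* as a covariate, the log2 fold change was 0.37 for *Postn*, -0.26 for *Thbs2* and 1.37 for *Eln*, and none of the members passed limma's test after adjustment.

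Because FPKM is scaled by length, related members were also set against each other as ratios within a library, in 4 pairs. *Fbn2* to *Fbn1* was 0.287 ± 0.0153 (SD, n = 3) in the controls and 0.287 ± 0.0749 (SD, n = 3) in the other group. *Thbs2* to *Thbs1* was 0.744 ± 0.141 and 0.839 ± 0.259, *Tnn* to *Tnc* 0.363 ± 0.0649 and 0.334 ± 0.0857, and *Fbln5* to *Fbln1* 0.939 ± 0.142 and 1.05 ± 0.310 (SD, n = 3 each). In each pair the spread was larger in the libraries labelled cKO, and the highest ratio but for *Tnn* to *Tnc* was that of cKO replicate 2. The groups overlapped in all 4 pairs, and the two-sided exact permutation test gave p between 0.6 and 0.9 (adjusted p = 0.9 over the 4), where 3 against 3 libraries cannot go below 0.1.

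Other matricellular genes were read from a list of tenascins, thrombospondins, SPARC relatives and *Tgfbi*, of which 11 of 14 passed the filter on low values. None passed after adjustment, 2 were higher and 1 was lower at an unadjusted p-value under 0.05 (background 5.37% and 7.76%), and the median log2 fold change was 0.064. The 2 higher genes were thrombospondins of tendon and cartilage. *Thbs4* had 16.84, 37.13 and 31.05 FPKM in the controls and 41.35, 37.74 and 68.13 in the libraries labelled cKO, without overlap. The gap between control replicate 2 and cKO replicate 2 was narrow, and control replicate 1 was well below the other controls. The difference, which rests in part on that low control, was 0.79 on the log2 scale (95% interval 0.02 to 1.56, adjusted p = 0.374 by limma). *Comp*, which the study chose for display from these same libraries and is thus no independent case, had a log2 fold change of 0.65 (adjusted p = 0.315). The *Comp* groups overlapped, with 16.57 FPKM in control replicate 2 and 16.07 in cKO replicate 2. *Thbs3*, which like *Thbs4* and *Comp* forms pentamers where *Thbs1* and *Thbs2* form trimers, was at 0.064 (adjusted p = 0.886) and was named after its values were seen. The lower gene was *Spock2*, a testican proteoglycan named after its values were seen, at -0.38. *Sparcl1*, a SPARC relative, had 2.45, 2.99 and 4.11 FPKM in the controls and 2.78, 12.4 and 4.73 in the libraries labelled cKO, and was highest, as *Eln* was, in cKO replicate 2. *Sparc*, an abundant collagen-binding protein of bone, had 5423 ± 355 and 5476 ± 321 FPKM (SD, n = 3 each), and *Fstl1*, a secreted SPARC relative, had 781 ± 51.2 and 804 ± 44.5 (SD, n = 3 each).

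Of 23 other genes of elastic fibre assembly, 21 passed the filter. None passed after adjustment, 6 were higher and 1 was lower at an unadjusted p-value under 0.05 (background 5.37% and 7.76%), and the median log2 fold change was 0.12. The groups did not overlap for 7 of the 21, or 33.3%, beside 18.3% of all tested genes. *Mfap5*, a microfibril-associated glycoprotein, had 59.52, 55.94 and 66.84 FPKM in the controls and 72.7, 79.9 and 82.8 in the libraries labelled cKO. The groups did not overlap (log2 fold change 0.37, 95% interval 0.16 to 0.57, adjusted p = 0.312). *Lox*, the lysyl oxidase that starts the crosslinking of elastin and collagen, had 452.13, 405.75 and 451.62 FPKM in the controls and 508.19, 523.18 and 572.77 in the libraries labelled cKO, again without overlap (log2 fold change 0.29, 95% interval 0.11 to 0.48, adjusted p = 0.312). *Fbln7*, a fibulin at low level, was at 0.59 and *Fbln2*, the most abundant fibulin here with 362 ± 30.6 and 425 ± 37.2 FPKM (SD, n = 3 each), at 0.23. The other genes above this limit were *Efemp2* (fibulin 4, needed for elastin crosslinking) and *Ltbp3*, and the lower one was *Thsd4*, a microfibril-associated protein. These 3 were named after their values were seen, at log2 fold changes of 0.19, 0.30 and -0.32. *Mfap2*, which binds fibrillins, had its highest value, 236.65 FPKM, in cKO replicate 2, and its log2 fold change was 0.40 (adjusted p = 0.477). That library carried much of the difference, since cKO replicates 1 and 3 had 138.81 and 176.63 FPKM, against 111.58 to 172.35 in the controls.

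**Figure D3:**
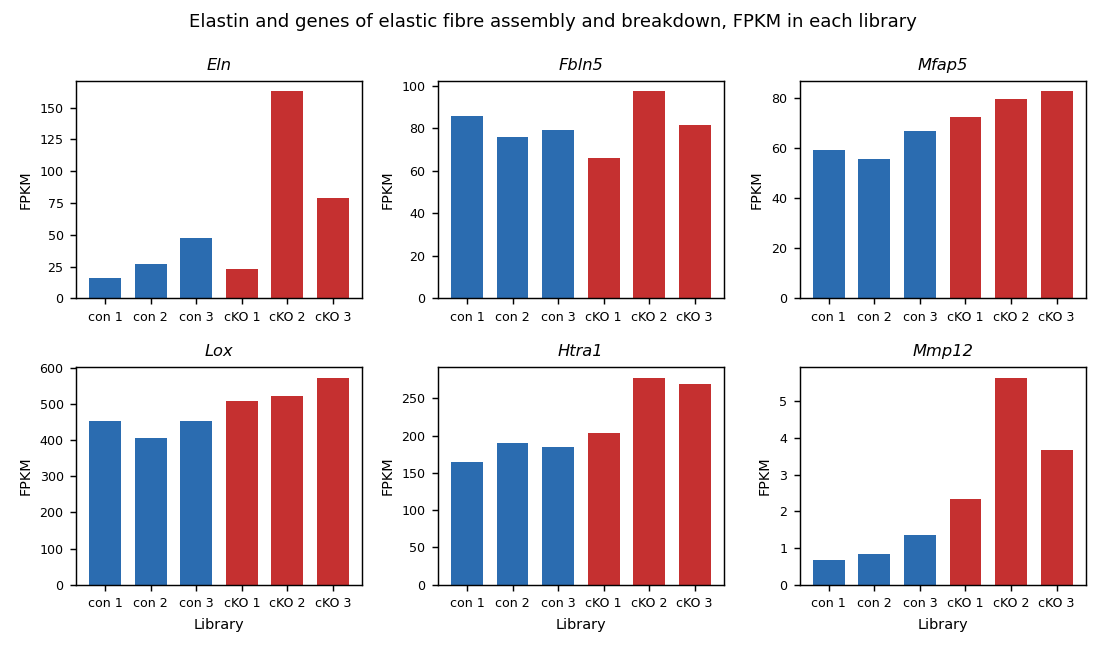
FPKM (bars from 0, with an axis of its own for each gene) in the 3 control libraries (blue, con) and the 3 libraries labelled cKO (red) for *Eln*, *Fbln5*, *Mfap5*, *Lox*, *Htra1* and *Mmp12*. The tall *Eln* bars are cKO replicates 2 and 3, whereas *Mfap5*, *Lox*, *Htra1* and *Mmp12* are above the controls in all 3 libraries labelled cKO.

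Among 15 receptors that bind these proteins, 13 passed the filter, and at an unadjusted p-value under 0.05 1 was higher and 1 was lower (background 5.37% and 7.76%), with 0 after adjustment and a median log2 fold change of -0.090. *Cd47*, a thrombospondin receptor, had 30.3, 29.83 and 31.24 FPKM in the controls and 34.43, 39.78 and 40.32 in the libraries labelled cKO (log2 fold change 0.31, 95% interval 0.13 to 0.50, adjusted p = 0.312). Its groups did not overlap and were in the opposite order to those of *Thbs2*. Over the 13 tested receptors the groups did not overlap for 3 (1 higher and 2 lower), beside 18.3% of all tested genes. *Itga8*, an integrin subunit that binds tenascins at low level here, was at -0.40 (adjusted p = 0.356). *Itgb1* and *Itgb5*, the most abundant integrin subunits of the list, had 341 ± 8.67 and 331 ± 23.4 FPKM and 225 ± 19.1 and 202 ± 2.70 FPKM (SD, n = 3 each). The *Itgb5* groups did not overlap, with the libraries labelled cKO lower, whereas those of *Itgb1* overlapped. *Lrp1*, an endocytic receptor that clears thrombospondins, was at -0.18 (adjusted p = 0.591). Its values in the libraries labelled cKO, 54.89 to 61.15 FPKM, all lay within the control range. Control replicate 2, at 79.77 FPKM, stood above the other controls at 63.65 and 54.43.

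All 9 listed proteases passed the filter, and 3 were higher at an unadjusted p-value under 0.05 (background 5.37%), 0 were lower and 0 passed after adjustment. The median log2 fold change was 0.10. *Mmp12*, macrophage elastase, had 0.66, 0.83 and 1.36 FPKM in the controls and 2.33, 5.64 and 3.66 in the libraries labelled cKO (log2 fold change 1.28, 95% interval 0.68 to 1.88, adjusted p = 0.312). *Mmp9*, a gelatinase that also cuts elastin, had 0.57, 0.71 and 1.15 FPKM in the controls and 1.87, 1.55 and 1.83 in the libraries labelled cKO, at 0.61. For both genes only control replicate 3 reached 1 FPKM, so they passed the filter through the libraries labelled cKO. The place of these 2 among the 3 higher proteases thus depends on the filter. *Htra1*, a serine protease that cuts fibulins and fibronectin, was abundant, with 164.18, 190.31 and 184.49 FPKM in the controls and 203.36, 277.79 and 269.22 in the libraries labelled cKO (log2 fold change 0.46, adjusted p = 0.312). *Mmp2* and *Mmp14*, the most abundant proteases of the list, were at -0.013 and 0.055.

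**Figure D4:**
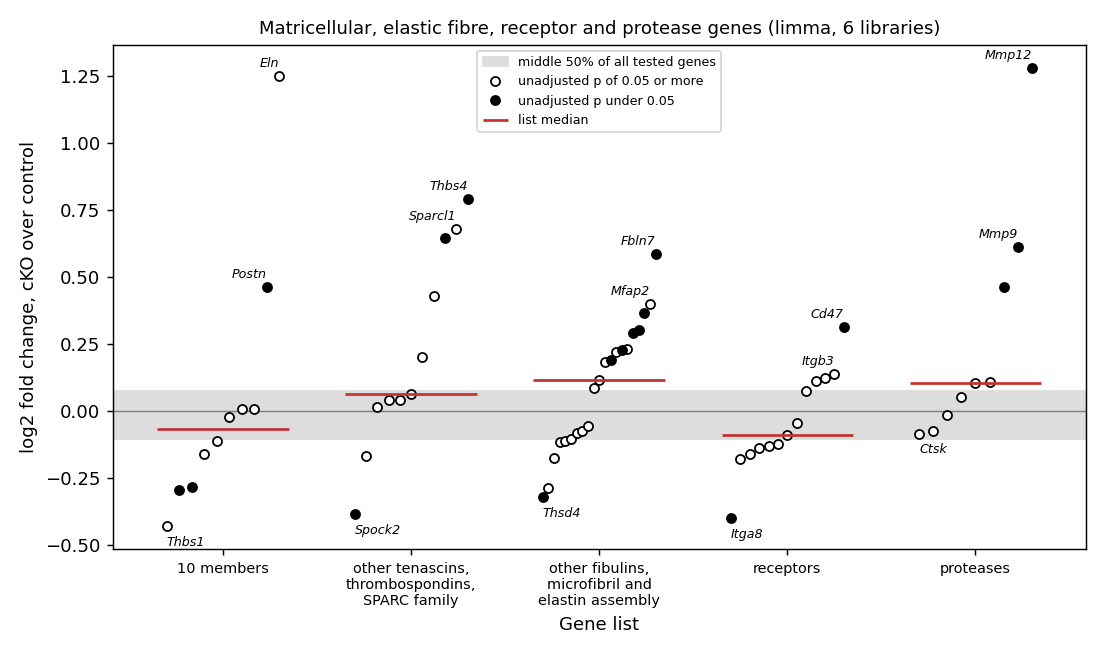
Log2 fold change (cKO over control, limma) of each tested gene in the 10 members and the 4 lists of related genes, with filled points for an unadjusted p-value under 0.05, a red line at each list's median and a grey band over the middle 50% of all tested genes. *Eln* and *Mmp12* are the highest points, at 1.25 and 1.28, and none of the points passed after adjustment.

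Markers of other cells were read beside these values. Of the 8 macrophage markers, 5 were tested and 0 had an unadjusted p-value under 0.05, and their summed FPKM was 58.7, 35.6 and 93.3 in the controls and 48.9, 67.4 and 74.9 in the libraries labelled cKO, with *Lyz2* as the most abundant (mean 48.9 FPKM). The sums, set mainly by *Lyz2*, overlapped between groups. Of the 6 smooth muscle and pericyte markers, 5 were tested with 0 under that limit. Their sum was 2760, 2847 and 2665 FPKM in the controls and 2707, 2464 and 2631 in the libraries labelled cKO, led by *Acta2* (mean 1893 FPKM), with the lowest sum in cKO replicate 2, where *Eln* was highest. The 6 endothelial markers summed to between 1.93 and 4.48 FPKM in all libraries, *Cldn5* was listed at 0 in control replicate 2, and the 1 tested gene, *Cdh5*, was not under that limit. The sums of the 4 skeletal muscle markers in the table overlapped between groups, with 26.5 to 49.8 FPKM over all libraries, *Acta1* as the most abundant and 0 of 3 tested under that limit.

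Other lists held genes that differed at this limit. All 3 tested epithelial markers of 6 were higher at an unadjusted p-value under 0.05, where the share of all tested genes was 5.37% for higher and 7.76% for lower values, also for the lists that follow. Of these 3, *Epcam* had no control at 1 FPKM and passed the filter only through the libraries labelled cKO. Its place in this count thus depends on the filter. The summed FPKM of all 6 epithelial markers was 0.46, 3.61 and 13.4 in the controls and 42.7, 36.9 and 18.2 in the libraries labelled cKO, *Krt18* led (mean 9.15 FPKM), and *Krt5*, *Krt14* and *Epcam* were listed at 0 in at least 1 library. Of the 6 adipocyte markers, 4 were tested and 2 (*Fabp4* and *Pparg*) were higher. The sums were 34.9, 40.0 and 50.9 FPKM in the controls and 76.1, 119.6 and 81.9 in the libraries labelled cKO, led by *Fabp4* (mean 40.7 FPKM), with *Plin1* listed at 0 in control replicate 3 and cKO replicate 2. The adipocyte sum was highest in cKO replicate 2, as *Eln* was, and neither the epithelial nor the adipocyte sums overlapped between groups. Most of the adipocyte difference came from *Fabp4*, and the *Pparg* groups also did not overlap. The groups of *Lpl*, *Cebpa*, *Adipoq* and *Plin1* overlapped. Of the 5 cartilage markers, 4 were tested and 2 (*Acan* and *Col9a1*) were higher, with *Matn1* listed at 0 in all but cKO replicate 2 and sums of 142, 152 and 89.6 FPKM against 130, 163 and 152 (*Col2a1* led, mean 109 FPKM). Of the 3 tendon markers, 1 (*Scx*) was higher, and the sums of 190, 166 and 258 FPKM in the controls and 195, 185 and 216 in the libraries labelled cKO overlapped, led by *Tnmd* (mean 168 FPKM), although *Thbs4* and *Comp* are also genes of cartilage and tendon. Of the 8 osteoblast lineage markers, 7 were tested and 4 (*Sp7*, *Alpl*, *Ibsp* and *Bglap*, genes of osteoblast maturation) were lower, with a median log2 fold change of -0.45, while the sums, set by *Col1a1* and *Col1a2*, overlapped between 15882 and 16986 FPKM. *Ibsp*, a bone matrix protein, had 123.86, 61.9 and 48.79 FPKM in the controls and 34.64, 26.17 and 27.65 in the libraries labelled cKO (log2 fold change -1.27, adjusted p = 0.312). *Dmp1*, the marker that was not tested, had 2.31, 0.58 and 0.38 FPKM in the controls. In the libraries labelled cKO it had 0.06, 9.32 and 0.21, so the groups overlapped and cKO replicate 2 was highest. *Ibsp* and *Fabp4* were also among the genes the study displayed from these same libraries and are no independent cases. The part of these cells or states in the values of the matricellular and elastic fibre genes was not tested.

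For members that ranged over at least 1 on the log2(FPKM + 1) scale, which were *Eln* and *Thbs1*, the genes with the most similar values over the 6 libraries were sought, by the root mean square difference of centred log2(FPKM + 1) values. For *Eln* these were *Car3* (difference 0.38), a carbonic anhydrase, *Cox4i2* (0.45), a cytochrome c oxidase subunit isoform, and *Slc7a3* (0.45), a cationic amino acid transporter. *Slc7a3* had 1.82, 1.46 and 4.26 FPKM in the controls and 2.85, 10.35 and 9.53 in the libraries labelled cKO, so that cKO replicates 2 and 3 stood above the rest. For *Thbs1* they included *Tcfl5* (0.094), a transcription factor, and *Zfp967* (0.12), a zinc finger gene. *Tcfl5* had 17.22, 12.77 and 16.33 FPKM in the controls and 13.27, 8.42 and 12.37 in the libraries labelled cKO, with its lowest value, as that of *Thbs1*, in cKO replicate 2. These matches rest on 6 libraries and describe a pattern of values.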

How the data were processed

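RNA was sequenced as 150 bp paired-end reads from 6 libraries. The authors mapped reads with HISAT2, and the submitters' processing notes also name DESeq and the GRCm38 build. The authors deposited FPKM values per gene symbol, rounded to 2 decimals. The annotation and FPKM program are not given in the sources used here. FPKM sums per library were 573307 to 606428, and depth is not known.

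Here, the 11590 rows that reached 1 FPKM in 3 or more libraries were fitted on the log2(FPKM + 1) scale with limma (version 3.58.1, R 4.3.3, Benjamini-Hochberg adjustment over all tested rows). This scale understates changes of low genes. Ratios were compared with exact permutation tests in scipy 1.17.1. The fit was tested on simulated data. The members, lists and tests were chosen with earlier results of these data known. Named genes were the members, *Nell2* and, in each list, the 3 with the largest absolute fold change and the 2 with the highest mean, plus the 3 closest genes of members that ranged over at least 1. Of these, 1 gene that this rule names is not reported here. Alternatives were the pseudocount (0.1), no filter, median scaling, quantile normalization, a variance trend, the replicate number as a block, the *Ddx3y* level as covariate, and fits without each library.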

Additional observations from a re-analysis of the deposited data

How the results depend on the processing

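Of the members, 0 passed limma's adjusted test under any of the alternatives, and those with an unadjusted p-value under 0.05 numbered 3, with 2 to 3 when 1 library was left out, 2 with a pseudocount of 0.1, no filter or quantile normalization, and 4 (with *Thbs1*) with the *Ddx3y* covariate. These were not always the same genes, since *Tnn* was lost in 7 alternatives, *Eln* came in without cKO replicate 1 and *Tnc* without cKO replicate 3. Over all tested genes, the number under this limit ran from 852 (without cKO replicate 3) to 2461 (without cKO replicate 1) with 1 library left out. It was 1469 with the pseudocount of 0.1, 1461 with quantile normalization and 1213 with the *Ddx3y* covariate, against 1521, all among the 11590 tested rows. Without the filter it was 1996, which is a count over more rows, as the whole table has 17001, and does not compare directly. Non-overlapping members numbered 2, and 2 to 4 with 1 library left out (4 without cKO replicate 2, where 25.8% of all tested genes did not overlap). This share was 18.3% with all libraries and 23.7% to 42.0% with 1 left out. Groups that are apart stay apart when a library is left out, so neither the member number nor this share could fall. Genes with an adjusted p-value under 0.05 numbered 0, and 0 to 324 with 1 library left out (324 without cKO replicate 1 and 2 without control replicate 3). *Postn*, *Tnc*, *Tnn*, *Thbs1*, *Thbs2*, *Eln* and *Fbln1* kept their sign in all 13 alternatives. *Eln* ran from 0.62 to 2.0 and *Thbs1* from -0.57 to -0.16, with the extremes of both without cKO replicates 1 and 2.

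Across the fits without 1 library, *Fbn1* had log2 fold changes from -0.075 to 0.10, *Fbn2* from -0.17 to 0.064 and *Fbln5* from -0.13 to 0.15. *Fbn2* was at 0.071 with the *Ddx3y* covariate. The list medians with 1 library left out ran from -0.11 to -0.050 for the members and from 0.049 to 0.26 (without control replicate 3) for other tenascins, thrombospondins and SPARC relatives. They ran from 0.025 (without cKO replicate 2) to 0.18 (without cKO replicate 1) for elastic fibre assembly, from -0.12 to -0.033 (without control replicate 2) for receptors and from 0.050 (without cKO replicate 1 or 3) to 0.10 for proteases. The log2 ratio difference ran from -0.23 to 0.12 for *Fbn2* to *Fbn1*, from -0.092 to 0.30 for *Thbs2* to *Thbs1*, from -0.33 to 0.028 for *Tnn* to *Tnc* and from -0.088 to 0.35 for *Fbln5* to *Fbln1*. *Thbs2* to *Thbs1* and *Fbln5* to *Fbln1* changed sign without cKO replicate 2, *Tnn* to *Tnc* without cKO replicate 3, and *Fbn2* to *Fbn1* without control replicate 1, cKO replicate 1 or cKO replicate 3. The cause was not tested.

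The deviations of same-numbered control and cKO libraries from their group means had correlations of 0.031, -0.17 and 0.21 across genes. For libraries of unlike number the correlations ran from -0.27 to 0.28. The labels give same-numbered libraries nothing in common but the number. With the replicate number as a block, 5 members (*Postn*, *Tnn*, *Thbs1*, *Thbs2* and *Eln*) had an unadjusted p-value under 0.05, beside 1465 of the 11590 tested genes, and 0 an adjusted one. FPKM hides depth, so the counting error of low genes such as *Mmp9* and *Mmp12* is unknown.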
